A study of Mus musculus with 20 samples.

Results

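Expression of 8 genes that mark muscle precursor cells and their differentiation was followed across mouse ear pinnae injected with PBS, IL-4, IL-13 or IL-31. The genes were chosen by name: the myogenic factors Myod1, Myog, Myf5 and Myf6, the partner factor Mef2c, the satellite cell factor Pax7, the satellite cell adhesion gene Cdh15 and the fusion gene Mymk. Of these 8, 6 were among the 16669 genes of the expression table and all 6 passed the filter on low values. Myf5 and Mymk were not analysed here. The question asked of them was whether they fell with the genes of mature muscle fibres or rose as they do when muscle regenerates.

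The injection was intradermal, into the right ear pinna. PBS alone was the control, and each cytokine was given in PBS as 10 µl at 0.1 µg/µl. IL-4 and IL-13 drive type 2 immunity through a shared receptor chain, and IL-31 is known for causing itch. Total RNA of the whole ear was sequenced, with 5 libraries in each of the 4 groups and 20 in all. The sources used here do not give the strain, sex or age of the mice or the time from injection to harvest. Nothing in the labels says whether each library came from its own animal, so p-values measure only the spread between these libraries, which may be technical.

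The ear holds sheets of striated muscle beside cartilage, skin and vessels. Muscle fibres do not divide, and new fibre nuclei come from satellite cells, precursors that lie against the fibre and express Pax7. After injury these cells divide, switch on Myf5 and Myod1, then Myog as they leave the cell cycle, fuse with the help of Mymk, and build young fibres with embryonic myosins. Myf6 (also called MRF4) is the myogenic factor that adult fibres express most. Mef2c binds DNA beside the myogenic factors and is also expressed outside muscle, in endothelium and some immune cells. Cdh15 encodes M-cadherin, which holds satellite cells to the fibre.

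Promoter sequences are shown for Myog and Mef2c, because Myog had the largest difference relative to the fibre genes and Mef2c the highest level. The sequences come from RefSeq for build GRCm38.p6, whose promoter table matched 5 of the 8 genes, and they end at the base before the first annotated exon. Myog lies on the plus strand of chromosome 1 and its stretch is chr1:134289754-134289988, and Mef2c lies on the plus strand of chromosome 13 with its first listed start site at the end of chr13:83503784-83504033. Capitals mark matches, on either strand, to the E-box CANNTG, the core bound by myogenic factors, and to CTANNNNTA, a loose form of the core bound by Mef2 proteins.
Myog: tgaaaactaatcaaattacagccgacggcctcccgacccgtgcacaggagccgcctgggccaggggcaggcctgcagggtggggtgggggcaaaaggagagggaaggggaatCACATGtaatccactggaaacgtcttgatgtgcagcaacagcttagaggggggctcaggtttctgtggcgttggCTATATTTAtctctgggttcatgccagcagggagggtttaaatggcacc
Mef2c: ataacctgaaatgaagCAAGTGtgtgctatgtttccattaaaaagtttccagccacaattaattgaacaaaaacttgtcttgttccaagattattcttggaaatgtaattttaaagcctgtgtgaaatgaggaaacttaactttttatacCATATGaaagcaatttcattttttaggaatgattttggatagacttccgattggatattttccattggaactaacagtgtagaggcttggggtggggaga
The Myog stretch held an E-box 138 bases before the start site and a CTANNNNTA match 64 bases before it. A further Myog E-box, 12 bases before the start site, falls outside the printed stretch. The Mef2c stretch held E-boxes 234 and 100 bases before the start site and no CTANNNNTA match. Among 32851 promoter windows of 250 bases, 66.2% held a CANNTG match and 19% a CTANNNNTA match, so such matches are common and say nothing of binding.

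Depth and tissue content varied between libraries. The effective library size, read from the steps between low values, was 6.11 to 23.73 M reads (M, mega; median 12.98 M), so that 3 reads correspond to 0.126 to 0.491 CPM. All values are log2 CPM, where CPM is the read count set against the depth of its library and an offset of 0.1556 CPM is added before the logarithm, which gives a floor of -2.68. Changes of genes near that floor, Pax7 above all, are understated. Summed CPM of 10 keratinocyte barrier genes was 2460 to 3820 in PBS libraries 1, 2 and 3 and 22200 to 23800 in PBS libraries 4 and 5. In the cytokine libraries it was 15800 to 45900. Results that compare with PBS were therefore also computed without PBS libraries 1, 2 and 3.

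Skeletal muscle was plainly present in the ears. The mean of 30 adult fibre genes (myosins, troponins, titin, nebulin, muscle creatine kinase and others) was 7.79 ± 0.68 log2 CPM (SD, n = 5) in PBS, 5.08 ± 1.06 in IL-4, 5.22 ± 0.94 in IL-13 and 6.94 ± 0.86 in IL-31. Satellite cell genes were low. Per kilobase of exon, the PBS level was 3.90 ± 0.52 log2 CPM per kb for Mef2c, 3.42 ± 0.67 for Myf6, 1.14 ± 0.76 for Myod1, 1.05 ± 0.92 for Myog, 0.36 ± 0.67 for Cdh15 and -2.67 ± 1.08 for Pax7. In that order Mef2c and Myf6 lay within their spread of each other, as did Myod1, Myog and Cdh15 each with its neighbour. Of 8 satellite cell markers, Myf5 and Calcr were not analysed here, and Vcam1 (also on endothelium), Megf10, Chodl and Fgfr4 had PBS means of 2.67, 0.93, 0.24 and 1.67 log2 CPM.

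Of the 6 measured genes, 4 fell in IL-4 ears and 5 fell in IL-13 ears against PBS, none rose, and none passed the limma test in IL-31 ears (0 of 6 at an unadjusted p under 0.05). The 4 that fell in both were Myod1, Myf6, Mef2c and Cdh15. Pax7 fell in IL-13, though only PBS and IL-31 libraries carried it past the filter, and Myog passed in neither. The limma test with Benjamini-Hochberg adjustment called 17.8% of all genes in IL-4 against PBS (9.63% lower and 8.22% higher), 19.7% in IL-13 (9.8% lower and 9.94% higher) and 6.38% in IL-31 (1.2% lower and 5.18% higher), at adjusted p under 0.05. The median log2 fold change of the 6 genes was -1.66 in IL-4, -1.80 in IL-13 and -0.48 in IL-31, beside -0.02, -0.03 and -0.04 over all genes tested. Of the calls, 46.1% in IL-4 and 50.4% in IL-13 were higher, against 59.5% and 61.4% after quantile normalization. The 3 comparisons share the same 5 PBS libraries. Without PBS libraries 1, 2 and 3, only Myf6 and Cdh15 of the 6 were called in IL-4 and none in IL-13, with log2 fold changes from -2.28 to -0.98 and from -2.19 to -0.62. That alternative leaves 2 PBS libraries and called 1200 and 385 genes in place of 2938 and 3250. Fewer cells of a type and less RNA per cell cannot be told apart in RNA of the whole ear.

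**Figure D1:**
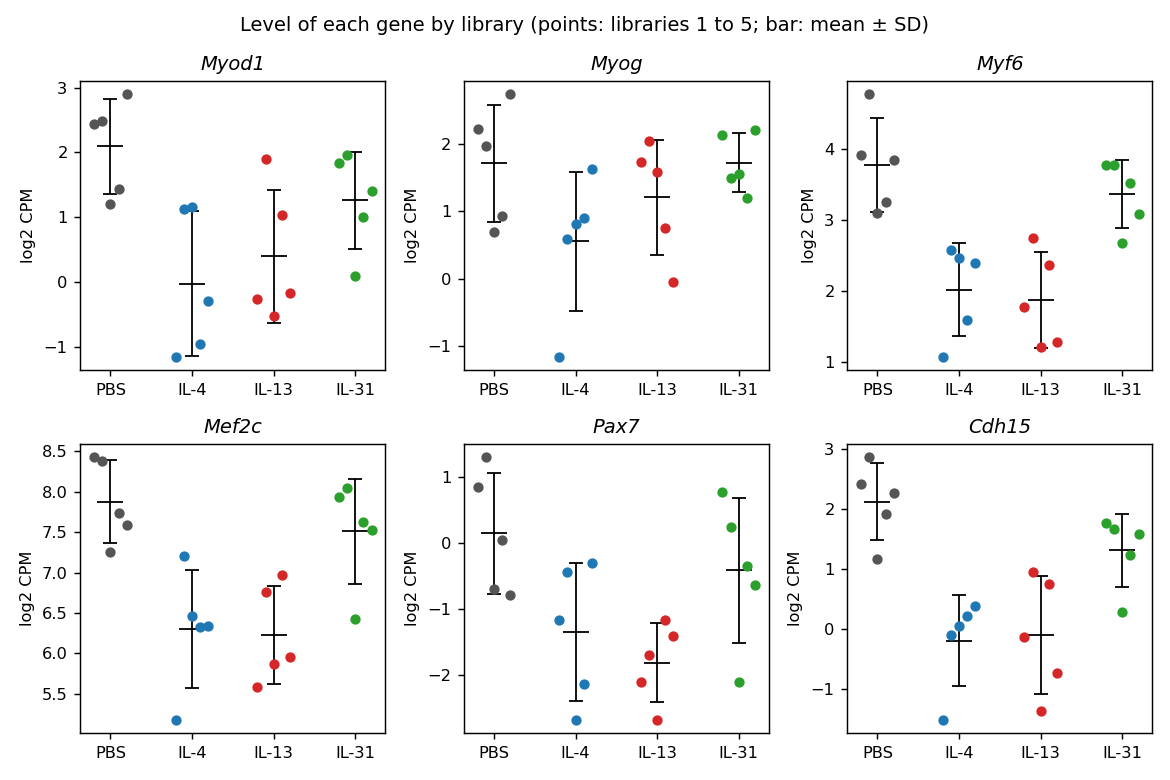
Level of each gene (log2 CPM, vertical axis) in the 4 groups, with 1 point per library in order 1 to 5 from left to right and a bar for the mean ± SD of 5 libraries. The IL-4 and IL-13 points of Myf6, Mef2c and Cdh15 lie below every PBS point, while the Myog points of all groups overlap.

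Myf6 (ENSMUSG00000035923, chromosome 10, 107492853 to 107494737, minus strand, GRCm38) is the factor of mature fibres. Its PBS libraries 1 to 5 read 3.91, 4.77, 3.10, 3.25 and 3.84 log2 CPM. The IL-4 libraries read 1.07, 2.57, 2.46, 1.59 and 2.39, and the IL-13 libraries 1.77, 2.74, 1.21, 2.37 and 1.28. IL-31 libraries read 3.78, 3.78, 2.68, 3.52 and 3.08. Every IL-4 and every IL-13 library lay below the lowest PBS library, whereas 3 of the 5 IL-31 libraries lay inside the PBS range. The log2 fold change was -1.76 ± 0.36 (SE, adjusted p = 0.00379) in IL-4 and -1.90 ± 0.36 (adjusted p = 0.00248) in IL-13. In IL-31 it was -0.41 ± 0.36 (adjusted p = 0.498).

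Myod1 (ENSMUSG00000009471, chromosome 7, 46376474 to 46379099, plus strand), the factor that commits precursor cells to the muscle lineage, was lower by a like amount but with more spread. PBS libraries read 2.44, 2.49, 1.21, 1.43 and 2.90 log2 CPM. In IL-4 the values were -1.16, 1.13, 1.16, -0.96 and -0.30, and in IL-13 they were -0.26, 1.90, -0.53, 1.03 and -0.17. The IL-31 values were 1.83, 1.96, 0.09, 1.01 and 1.41. All 5 IL-4 libraries lay below all PBS libraries, though narrowly (1.16 against 1.21), and IL-13 library 2 lay inside the PBS range. Myod1 fell by 2.12 ± 0.54 on the log2 scale in IL-4 (adjusted p = 0.0116) and by 1.70 ± 0.54 in IL-13 (adjusted p = 0.0336). The IL-13 call rested on few libraries: leaving out PBS library 1, 2 or 5, or library 1, 3 or 5 of the IL-13 group, gave an adjusted p of 0.0563 to 0.0967, and it was 0.0702 after quantile normalization. The IL-31 change was -0.83 ± 0.54 (adjusted p = 0.351).

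Myog (ENSMUSG00000026459, chromosome 1, 134289989 to 134292548, plus strand), the factor that drives terminal differentiation, passed the test against PBS in no cytokine. Its PBS values were 2.22, 1.97, 0.70, 0.93 and 2.74 log2 CPM. IL-4 libraries gave -1.16, 0.59, 0.81, 0.91 and 1.63, IL-13 libraries 1.74, 2.04, 1.59, 0.75 and -0.05, and IL-31 libraries 2.14, 1.49, 1.56, 1.20 and 2.21. The groups overlapped in each comparison, and the lowest value of the gene was IL-4 library 1, which also had the lowest fibre mean (3.42). The log2 fold change was -1.16 ± 0.49 in IL-4 (adjusted p = 0.108, 95% interval -2.17 to -0.14, unadjusted p = 0.028), -0.50 ± 0.49 in IL-13 (adjusted p = 0.50, 95% interval -1.52 to 0.52) and 0.01 ± 0.49 in IL-31 (adjusted p = 0.993, interval -1.01 to 1.03). The IL-4 interval, which is not adjusted for the number of genes tested, lay below 0. Those of IL-13 and IL-31 allow a decrease or an increase, so a lack of change was not shown.

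Mef2c (ENSMUSG00000005583, chromosome 13, 83504034 to 83667080, plus strand) was the most deeply measured of the set. Its values were 8.43, 8.38, 7.25, 7.73 and 7.59 log2 CPM in PBS, 5.18, 7.21, 6.46, 6.33 and 6.34 in IL-4, and 5.58, 6.76, 5.87, 6.97 and 5.95 in IL-13. In IL-31 they were 7.93, 8.05, 6.42, 7.62 and 7.52. No IL-4 or IL-13 library reached the lowest PBS library, and IL-31 fell below it in library 3 only. Mef2c fell by 1.57 ± 0.36 on the log2 scale in IL-4 (adjusted p = 0.00638) and by 1.65 ± 0.36 in IL-13 (adjusted p = 0.00443), and the IL-31 change was -0.37 ± 0.36 (adjusted p = 0.534). Endothelial cells also express Mef2c, and endothelial markers were lower too: 3 of 10 fell in IL-4 (median -0.58) and 6 of 10 in IL-13 (median -0.70), among them Tek with log2 fold changes of -1.01 and -1.0. With 1 library left out, the endothelial counts ran from 1 (PBS library 2, IL-4 library 4 or IL-4 library 5) to 6 (IL-4 library 1) in IL-4 and from 2 (IL-13 library 3) to 8 (PBS library 3) in IL-13, and without PBS libraries 1, 2 and 3 they were 2 and 2. Their part in the change of Mef2c was not tested. The 8 B cell markers listed were not analysed here. The other Mef2 genes, Mef2a and Mef2d, differed from PBS by -0.20 to 0.18 and passed the test in no comparison with PBS. These 2 genes were picked out after their values were seen.

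Pax7 (ENSMUSG00000028736, chromosome 4, 139737062 to 139833528, minus strand), which defines satellite cells, was close to the limit of detection. PBS libraries read 0.85, 1.31, -0.69, 0.05 and -0.78 log2 CPM, or about 15, 26, 6, 10 and 5 reads. IL-4 libraries read -1.16, -0.44, -2.68, -2.14 and -0.30 (about 3, 6, 0, 1 and 4 reads), and IL-13 libraries -2.11, -1.69, -2.68, -1.17 and -1.41 (about 1, 2, 0, 4 and 3 reads). IL-31 libraries read 0.78, 0.25, -2.11, -0.34 and -0.64, or about 22, 16, 1, 15 and 7 reads. A value of at least 0 was reached in 5 libraries, 3 of PBS and 2 of IL-31, so Pax7 passed the filter with none to spare. It was kept only through groups where it was high, which favours lower values in IL-4 and IL-13 than in PBS. All IL-13 libraries lay below all PBS libraries, and IL-4 overlapped PBS. The log2 fold change was -1.96 ± 0.57 in IL-13 (adjusted p = 0.0213), -1.49 ± 0.57 in IL-4 (adjusted p = 0.0757) and -0.56 ± 0.57 in IL-31 (adjusted p = 0.555). Leaving out PBS library 1, PBS library 2 or IL-13 library 3 ended the IL-13 call, with an adjusted p of 0.0523, 0.0701 and 0.0645. Leaving out PBS library 5 gave a call in IL-4 (adjusted p = 0.0462). The difference between IL-4 and IL-13 was 0.46 ± 0.57 (adjusted p = 0.997, 95% interval -0.73 to 1.66).

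Cdh15 (ENSMUSG00000031962, chromosome 8, 122847966 to 122867397, plus strand) had the largest decrease of the set in both IL-4 and IL-13. PBS libraries read 2.41, 2.87, 1.16, 1.91 and 2.26 log2 CPM. The IL-4 values were -1.52, -0.11, 0.05, 0.21 and 0.38, the IL-13 values -0.13, 0.95, -1.37, 0.75 and -0.74, and the IL-31 values 1.77, 1.67, 0.28, 1.23 and 1.59. IL-4 and IL-13 lay wholly below PBS, and IL-31 overlapped it in 4 of 5 libraries. The IL-4 values rest on about 2 to 14 reads and the IL-13 values on about 3 to 23. Cdh15 fell by 2.32 ± 0.46 on the log2 scale in IL-4 (adjusted p = 0.00285) and by 2.23 ± 0.46 in IL-13 (adjusted p = 0.00321), and the IL-31 change was -0.81 ± 0.46 (adjusted p = 0.279). Counting genes whose 5 cytokine libraries all lay below all PBS libraries gave 4 of 6 in IL-4 (Myod1, Myf6, Mef2c and Cdh15) and 4 of 6 in IL-13 (Myf6, Mef2c, Pax7 and Cdh15), beside 5.89% and 5.01% of all genes. The IL-13 count includes Pax7, which passed the filter only through PBS and IL-31 libraries.

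IL-4 and IL-13 were also set against each other and against IL-31. Between IL-4 and IL-13 none of the 6 genes passed the test (log2 differences -0.66 to 0.46, adjusted p = 0.997 for each), and limma called 0.0% of all genes, with 664 genes at an unadjusted p under 0.05. The 95% interval of the difference was -0.62 to 0.90 for Myf6, -0.67 to 0.83 for Mef2c and -1.04 to 0.86 for Cdh15. Against IL-31, all 6 had lower means in IL-4, with log2 differences from -1.51 (Cdh15) to -0.93 (Pax7) and adjusted p of 0.174 to 0.59. IL-13 means were lower than IL-31 means as well, with log2 differences from -1.49 (Myf6) to -0.51 (Myog) and adjusted p of 0.215 to 1.0. Both comparisons called 0.0% of all genes, with 1743 and 1200 at an unadjusted p under 0.05. The lack of calls depended on IL-31 library 3, whose fibre mean was 5.41 against 7.11 to 7.53 in the other IL-31 libraries. Without it, the IL-4 difference from IL-31 was -1.52 for Myf6 (adjusted p = 0.0436) and -1.47 for Mef2c (adjusted p = 0.0316). The IL-13 difference was then -1.67 for Myf6 (adjusted p = 0.0276) and -1.55 for Mef2c (adjusted p = 0.0239), and 304 and 297 genes were called.

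**Figure D2:**
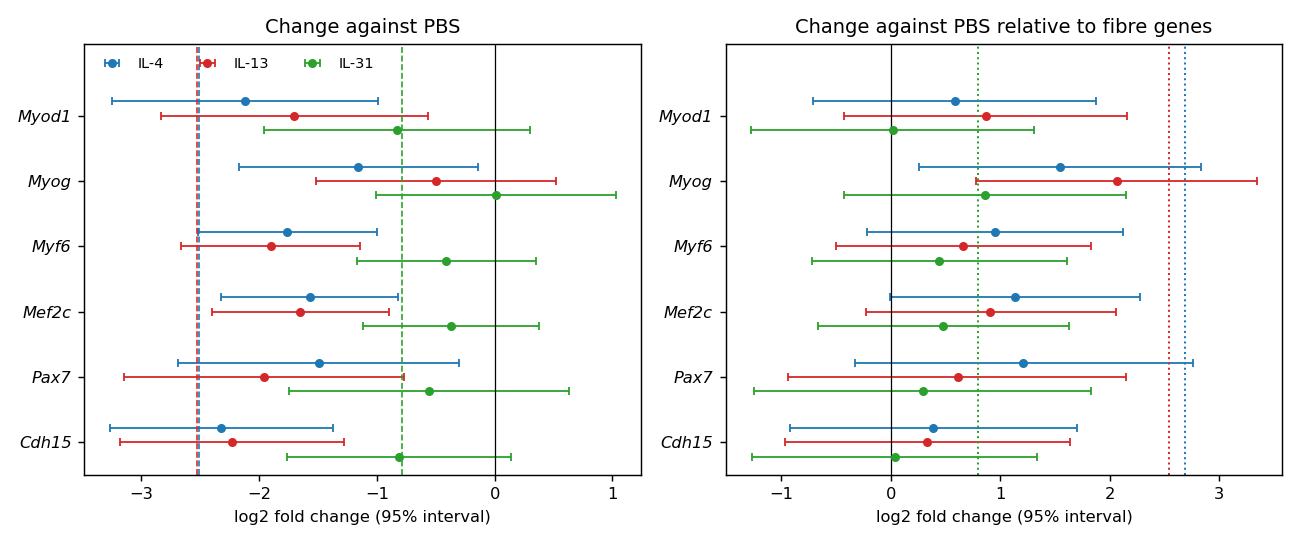
Left, log2 fold change of each gene against PBS with its 95% interval, in the colours of the key; dashed lines give the median of the 30 adult fibre genes (-2.51, -2.53 and -0.79). Right, the same after subtracting each library's fibre mean; dotted lines give the median of all genes tested (2.69, 2.54 and 0.80), and of the IL-4 and IL-13 intervals only those of Myog lie wholly above 0.

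The fibre genes had more negative medians than the myogenic genes. Of the 30, 29 fell in IL-4 (median log2 fold change -2.51), 27 fell in IL-13 (median -2.53) and none passed in IL-31 (median -0.79; 3 at an unadjusted p under 0.05). The log2 fold changes of Eno3, the muscle enolase, were -2.56 in IL-4 and -2.63 in IL-13. They were -2.94 and -2.91 for Myl1, a fast light chain, -2.97 and -3.03 for Pygm, the muscle glycogen phosphorylase, and -2.83 and -2.78 for Mylpf, another fast light chain. Without PBS libraries 1, 2 and 3 the number that fell was 21 in IL-4 and 6 in IL-13, with medians of -2.46 and -2.44.

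Across the 20 libraries, 4 of the 6 genes (Myf6, Cdh15, Mef2c and Myod1) followed the fibre mean closely, and Pax7 and Myog did so less. Pearson's r and Spearman's rho with the fibre mean were 0.96 and 0.95 for Myf6, 0.96 and 0.97 for Cdh15, 0.94 and 0.93 for Mef2c, and 0.91 and 0.91 for Myod1, with a permutation p of 2e-05 for each, the smallest that 100000 resamples can give (3e-05 adjusted over the 6 genes). Pax7 gave 0.72 (permutation p = 0.00046, adjusted 0.000552) and 0.70 (0.00084, adjusted 0.00101). Over all libraries Myog had the lowest r, 0.63 (permutation p = 0.0029, adjusted 0.0029) with a rho of 0.57 (permutation p = 0.0104, adjusted 0.0104). Leaving out the 2 libraries farthest from the median fibre mean gave r of 0.88 to 0.94 for Myod1, Myf6, Mef2c and Cdh15, 0.72 for Pax7 and 0.46 for Myog. After subtracting each group's mean, which removes differences between group means, r was 0.89 for Myf6, 0.88 for Cdh15, 0.84 for Myod1 and Mef2c, 0.51 for Myog and 0.43 for Pax7. No p was computed for these r. The permutations above shuffled all 20 libraries regardless of group, so their p-values also reflect differences between groups. Per log2 unit of the fibre mean, the genes moved by 0.82 (Cdh15), 0.76 (Myod1), 0.68 (Myf6), 0.61 (Mef2c), 0.58 (Pax7) and 0.40 (Myog) log2 units. The fibre mean also ranged within groups, from 6.93 to 8.83 in PBS, and each gene and the fibre mean were read from the same libraries.

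**Figure D3:**
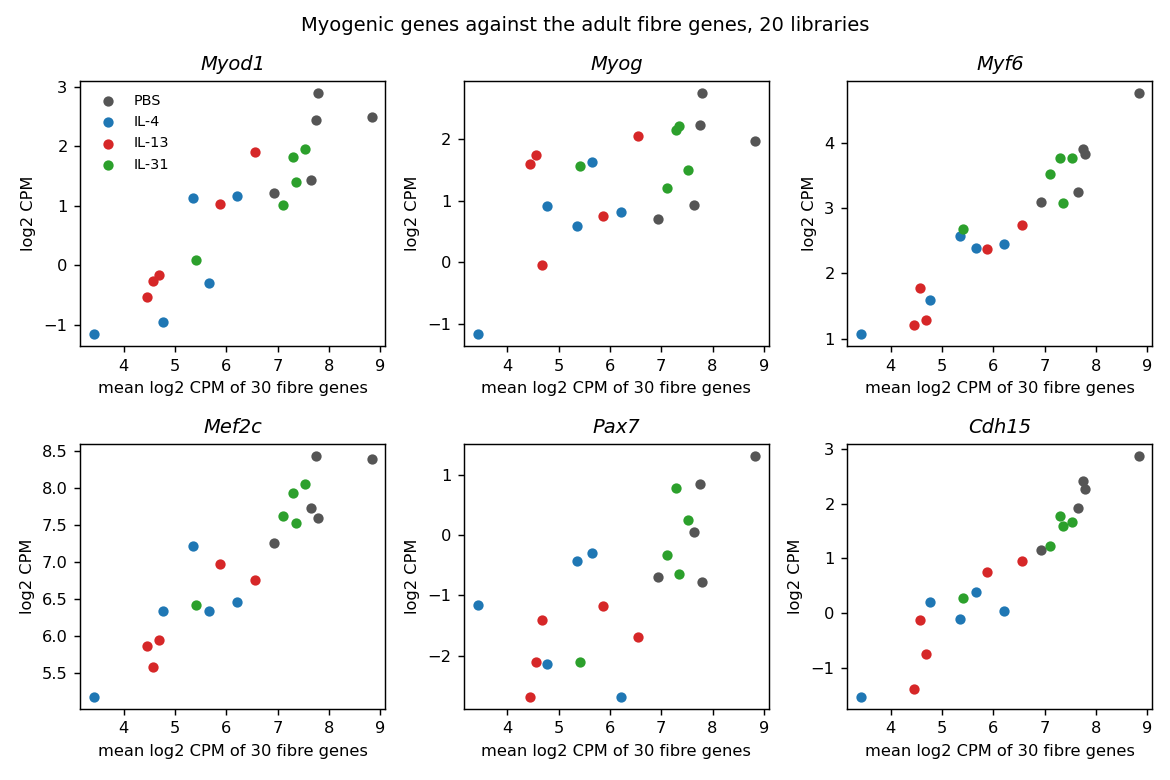
Log2 CPM of each gene (vertical axis) against the mean log2 CPM of 30 adult fibre genes in the same library (horizontal axis), 1 point per library, coloured by group. Myf6, Cdh15 and Mef2c form narrow bands (r = 0.96, 0.96 and 0.94), and Myog scatters most at low fibre means, where IL-13 libraries 1 and 3 stand at 1.74 and 1.59.

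The 6 genes also differed in how far they kept step with each other. Myf6 and Cdh15 had the highest correlation of any pair over the 20 libraries (r = 0.95), followed by Myf6 with Mef2c (0.94) and Mef2c with Cdh15 (0.92). Myog with Pax7 had the lowest (0.27), and Myog reached 0.66 at most, with Cdh15. The protein-coding genes most like each gene over the 20 libraries were Pdlim3, Kcnj11 and Cavin4 for Myf6 (r = 0.973, 0.973 and 0.968), and Camk2b, Smtnl1 and Myoz2 for Mef2c (0.991, 0.988 and 0.987). For Cdh15 they were Hfe2, Fitm1 and Myadml2 (0.973, 0.971 and 0.97), and for Myod1 Mlip, Uchl1 and Mylpf (0.934, 0.928 and 0.925). Myog came closest to Ankrd1 (0.872), a stress-responsive titin-binding protein, Chrna1 (0.829), a subunit of the muscle acetylcholine receptor, and Dusp13 (0.767). Pax7 came closest to Zfp641, Mlycd and Fxyd6 (0.904, 0.894 and 0.88). Chrna1 itself fell by 1.36 in IL-4 (adjusted p = 0.00914) and by 1.0 in IL-13 (adjusted p = 0.0406), whereas Ankrd1 changed by -1.17 (adjusted p = 0.137) and -1.01 (adjusted p = 0.191).

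To ask whether a gene moved by as much as the fibre genes, the fibre mean of each library was subtracted and the difference tested. On this scale Myog was higher than in PBS in IL-4 and in IL-13, and no other gene of the set passed the test. The test draws the spread of each gene toward that of all genes. For Myf6 the SE was 0.59, above its relative SD of 0.23 in PBS, 0.52 in IL-4 and 0.38 in IL-13. The lack of a call for the other 5 genes therefore does not set Myog apart. The relative values of Myog were -5.53, -6.86, -6.24, -6.71 and -5.05 in PBS, -4.59, -4.75, -5.39, -3.86 and -4.02 in IL-4, -2.82, -4.51, -2.87, -5.12 and -4.73 in IL-13, and -5.16, -6.04, -3.85, -5.90 and -5.14 in IL-31. IL-4 and IL-13 each overlapped PBS in 1 library. The relative log2 difference of Myog was 1.55 ± 0.65 in IL-4 (adjusted p = 0.0195), 2.07 ± 0.65 in IL-13 (adjusted p = 0.00216) and 0.86 in IL-31, which did not pass. A rise relative to the fibre genes is the common case: 96.1% of all genes passed in IL-4 and 95.7% in IL-13, against 0.778% in IL-31, and the median of all genes was 2.69, 2.54 and 0.80. The IL-4 difference lost its call without PBS library 2 (1.36, adjusted p = 0.0549), PBS library 4 (1.40, adjusted p = 0.0552), IL-4 library 4 (1.39, adjusted p = 0.0567) or PBS libraries 1, 2 and 3 together (1.36, adjusted p = 0.132). The IL-13 difference was 1.87 without those 3 libraries (adjusted p = 0.0394).

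The relative log2 differences of the other 5 genes from PBS were above 0 in IL-4 and IL-13. Like those of Myog, they were below the median of all genes. In IL-4 the relative log2 difference was 1.14 for Mef2c (adjusted p = 0.0541), 1.21 for Pax7 (0.125), 0.95 for Myf6 (0.113), 0.59 for Myod1 (0.379) and 0.39 for Cdh15 (0.562). In IL-13 it was 0.91 for Mef2c (adjusted p = 0.121), 0.87 for Myod1 (0.193), 0.66 for Myf6 (0.267), 0.61 for Pax7 (0.445) and 0.33 for Cdh15 (0.619). All 5 IL-4 and all 5 IL-13 libraries of Myf6 lay above PBS on this scale, as they did for 80.9% and 73.7% of all genes. The median of the 6 genes was 1.04 and 0.77. Choice of reference mattered: against 10 fast-fibre genes alone, Myf6 (1.80, adjusted p = 0.0143), Mef2c (1.99, adjusted p = 0.00638) and Pax7 (2.07, adjusted p = 0.0217) also passed in IL-4. In IL-13, Mef2c (1.61, adjusted p = 0.027) and Myod1 (1.57, adjusted p = 0.0498) passed beside Myog. With a pseudocount of 1, Pax7 passed in IL-4 (1.94, adjusted p = 0.00158) and in IL-13 (1.66, adjusted p = 0.00708), and Myod1 in IL-13 (1.29, adjusted p = 0.0322). In the main relative fit 96.1% of all genes passed in IL-4 and 95.7% in IL-13, so such calls do not set these genes apart. A fall of Pax7 that is understated near the floor makes its relative value larger, and a larger pseudocount adds to this. The same applies to Myod1, Myog and Cdh15 in the libraries where they rest on few reads. Mef2c was also called in IL-4 without IL-4 library 3 (1.38, adjusted p = 0.0221) or 5 (1.27, adjusted p = 0.0467), IL-13 library 2 (1.14, adjusted p = 0.0439) or IL-31 library 3 (1.14, adjusted p = 0.0397), and Pax7 without IL-4 library 3 (1.83, adjusted p = 0.0231).

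**Figure D4:**
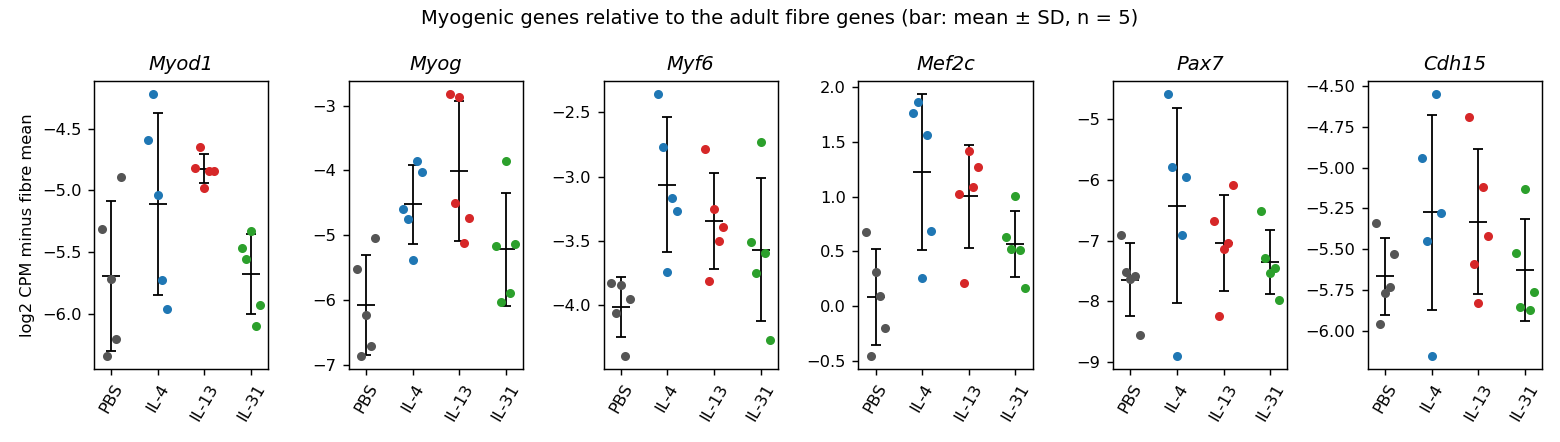
Log2 CPM of each gene minus the mean log2 CPM of the 30 adult fibre genes in the same library, by group, with 1 point per library in order 1 to 5 and a bar for the mean ± SD of 5 libraries. The Myog means are -6.08 in PBS, -4.52 in IL-4 and -4.01 in IL-13, and the Cdh15 means lie between -5.67 and -5.28.

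Genes of young and regenerating fibres did not rise against PBS. Of 14 tested (1 further gene of the list, Mymx, was not analysed here), 9 fell in IL-4 (median -1.12), 6 fell in IL-13 (median -0.99) and none passed in IL-31 (median -0.22, 1 at an unadjusted p under 0.05), and no gene of this list rose in any of these comparisons. Myh8, the perinatal myosin, fell by 2.01 ± 0.45 in IL-4 (adjusted p = 0.00601) and by 2.01 ± 0.45 in IL-13 (adjusted p = 0.00557). Actc1, the cardiac actin that young skeletal fibres express, had log2 fold changes of -2.03 (adjusted p = 0.0153) and -2.78 (adjusted p = 0.00269). Those of Nes (nestin) were -1.08 and -1.17, and those of Ncam1, an adhesion molecule of young and denervated fibres, -0.90 and -1.16, and each of these passed the test. Myh3, the embryonic myosin, was picked out after its values were seen: its means were 7.30 ± 0.85 log2 CPM in PBS, 5.43 ± 0.94 in IL-4, 5.43 ± 0.98 in IL-13 and 7.13 ± 1.16 in IL-31. It fell by 1.88 in IL-4 (adjusted p = 0.0265) and by 1.87 in IL-13 (adjusted p = 0.0248). Chrng, the fetal receptor subunit, also picked out afterwards, changed by -1.16 (adjusted p = 0.219) and -0.27 (adjusted p = 0.80). The counts of genes that fell were 3 and 1 without PBS libraries 1, 2 and 3 (medians -1.08 and -0.93), and the IL-4 count was 5 without PBS library 2. Relative to the adult fibre genes, 8 of the 14 were higher in IL-4 (median 1.59) and 10 in IL-13 (median 1.57). The IL-31 fit called 0 of them (median 0.63). Over all genes 96.1% and 95.7% were higher in IL-4 and IL-13, with larger medians of 2.69 and 2.54.

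Cell cycle genes, which dividing cells of any type express, gave no call. None of 10 passed the limma test in any cytokine (at an unadjusted p under 0.05 there were 2 in IL-13 and 0 in the others), with medians of -0.13 in IL-4, 0.30 in IL-13 and -0.01 in IL-31. Ccna2 (cyclin A2) differed from PBS by 0.07 in IL-4 (adjusted p = 0.849) and 0.56 in IL-13 (adjusted p = 0.0566), and Ccnb1 (cyclin B1) by 0.02 (adjusted p = 0.965) and 0.55 (adjusted p = 0.0941).

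Other satellite cell genes gave a mixed picture. Among 17 tested of 20 listed, 4 fell and 1 rose in IL-4 (median -0.34), 6 fell and 2 rose in IL-13 (median -0.50), and 1 rose in IL-31 (median -0.20). Des (desmin), which fibres also contain, fell by 2.36 ± 0.42 in both (adjusted p = 0.00152 and 0.00187). Itga7, the laminin receptor of muscle, had log2 fold changes of -1.28 ± 0.22 and -1.35 ± 0.22 (adjusted p = 0.00145 and 0.00142). Heyl, a Notch target also active in vessel walls, fell by 1.53 in IL-13 (adjusted p = 0.00171) and changed by -0.66 in IL-4 (adjusted p = 0.0851). Sdc4 (syndecan 4), which epithelia also express, rose by 0.51 in IL-4, 0.47 in IL-13 and 0.48 in IL-31 (adjusted p = 0.00382, 0.0056 and 0.0214). Of the satellite cell markers whose levels are given above, which were picked out after their values were seen, Vcam1 fell in both (log2 fold changes of -1.20, adjusted p = 0.014, and -0.95, adjusted p = 0.04), Chodl fell by 1.57 in IL-13 (adjusted p = 0.0361), and Megf10 and Fgfr4 passed in no comparison with PBS (changes of -0.51 to -0.20). Without PBS libraries 1, 2 and 3, 4 fell and none rose in each of IL-4 and IL-13. The IL-13 count of falls was 3 without PBS library 2, PBS library 4 or IL-13 library 3. The IL-4 count of rises was 3 without PBS library 4, and 2 without PBS library 5, IL-4 library 1 or IL-13 library 2. In IL-31 no gene of the list rose without PBS library 1, 2 or 3, IL-31 library 3 or 5, or PBS libraries 1, 2 and 3 together, while 3 rose without PBS library 4 and 2 without PBS library 5.

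The list of partners and inhibitors of the myogenic factors fell in part, and it also holds fibre genes such as Klhl40, Klhl41 and Smyd1. Of 27 tested, 10 fell in IL-4 (median -0.27), 11 in IL-13 (median -0.29) and none in IL-31 (median -0.23, 5 at an unadjusted p under 0.05), and none rose. Klhl40, which stabilises thin filaments, had log2 fold changes of -2.71 in IL-4 and -2.34 in IL-13, and Klhl41, its relative, -2.05 and -2.18. For Smyd1, a muscle methyltransferase that acts in myosin assembly, they were -2.20 and -2.17, and for Six4, a homeobox factor upstream of the myogenic genes, -1.72 and -1.78. Their adjusted p values were between 0.00277 and 0.00596. The widely expressed partner Tcf12 and inhibitors Id1 and Id3, picked out afterwards, differed from PBS by -0.34 to 0.10 and passed in no comparison with PBS. The number that fell was 3 in IL-4 and none in IL-13 without PBS libraries 1, 2 and 3, 6 and 5 without PBS library 2, and in IL-13 6 without IL-13 library 3 and 7 without IL-13 library 5. In IL-4, 1 gene rose without PBS libraries 1, 2 and 3. With 1 library left out, rises numbered 0 to 2 in IL-4, 0 to 1 in IL-13 and 0 to 1 in IL-31.

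Genes that rise after denervation or in atrophy, several of them targets of Myog, were lower as well. Of 15 tested, 8 fell and 1 rose in IL-4 (median -0.90), 8 fell and 1 rose in IL-13 (median -1.0), and none passed in IL-31 (median -0.49, 2 at an unadjusted p under 0.05). Trim63, the atrophy ubiquitin ligase MuRF1, had log2 fold changes of -2.14 ± 0.55 in IL-4 (adjusted p = 0.0124) and -2.66 ± 0.55 in IL-13 (adjusted p = 0.00345). Those of the acetylcholine receptor subunits Chrnb1 and Chrnd were -1.5 and -1.71 in IL-4 and -1.37 and -1.82 in IL-13. Chrng, Musk and Ncam1 belong to this list and to that of young fibres, and Hdac4 to this list and to that of partners and inhibitors. The 1 gene that rose, Foxo3, is expressed in many tissues and was picked out after its values were seen (0.40 in IL-4, adjusted p = 0.0402, and 0.48 in IL-13, adjusted p = 0.0163). No gene of the list rose in IL-4 without PBS library 1, 2 or 3 or without IL-4 library 2, 3, 4 or 5, and none in IL-13 without IL-13 library 3. Without PBS libraries 1, 2 and 3 together no gene rose in either, and the falls numbered 1 in IL-4 and 0 in IL-13, with medians of -1.07 and -0.82.

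Markers of other tissues of the ear moved with the groups to different degrees. Cartilage markers gave no call among 9 (medians 0.03 in IL-4 and 0.18 in IL-13, with 1 and 0 at an unadjusted p under 0.05). Keratinocyte barrier markers rose for 6 of 10 in IL-4 (median 1.60), 8 of 10 in IL-13 (median 1.92) and 6 of 10 in IL-31 (median 1.90). These rises depended on PBS libraries 1, 2 and 3, whose mean over the 10 markers was 5.97 to 6.96 log2 CPM, against 8.92 and 8.93 in PBS libraries 4 and 5 and 8.88 to 9.47 in IL-31. Without those 3 libraries none of the 10 passed in any cytokine (medians 0.01, 0.36 and 0.32). With 1 library left out, the rises numbered 2 in IL-4 without PBS library 2, and 0 in IL-31 without PBS library 1, 2 or 3 or IL-31 library 3 or 5, and 2 in IL-31 without IL-31 library 1 or 4. Smooth muscle markers fell for 2 of 8 in IL-4 and 1 of 8 in IL-13, and Synpo2, which striated fibres also express, was called in both. The smooth muscle count was 1 in IL-4 without PBS library 2 or IL-4 library 2 or 4, and in IL-13 it was 2 without PBS library 5 and 3 without IL-13 library 2. Macrophage markers fell for 5 of 10 in IL-4 and 4 of 10 in IL-13, where the count was 0 without PBS library 1 or 5 or IL-13 library 2, 3 or 4, 1 without PBS library 2, and 2 without PBS library 4, IL-4 library 1, 2 or 3, or IL-31 library 2 or 5. It was 3 in IL-4 without IL-4 library 5. The part of these tissues in the lower share of muscle RNA was not tested.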

How the data were processed

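Ear RNA from 20 samples in 4 groups of 5 was analysed. The deposited table holds log2 CPM for 16669 genes. Per the submitters' processing notes, edgeR and build GRCm38 were used. The sources used here do not give the aligner, counter or annotation release. Between 79.2 and 85.1% of low values were whole reads (within 0.02 reads), too few to recover counts, so no count test was run. GENCODE M21 gave symbols for 16652 identifiers.

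Genes with log2 CPM of at least 0 in at least 5 libraries were kept (16461; 208 removed). One limma model (R 4.3.3, limma 3.58.1; lmFit, contrasts.fit, eBayes with trend) was fitted to all 20 samples and checked on simulated data. Calls are two-sided, at a Benjamini-Hochberg adjusted p under 0.05 over all genes tested. The relative test ran the same model on log2 CPM minus the library's mean over 30 adult fibre genes. Promoter matches and permutation tests used python 3.11.15, numpy 2.4.6, pandas 2.3.3 and scipy 1.17.1, and plots matplotlib 3.10.9.

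The members and lists were chosen with earlier results of these data known. All 6 measured members are named, with at most 4 genes per list by smallest adjusted p against PBS and the 3 genes best correlated with each member. Other genes are marked as picked out later. Lists covered adult fibres, young fibres, other satellite cell genes, partners and inhibitors, denervation and atrophy, cell cycle, endothelium, cartilage, smooth muscle, macrophages, neutrophils, B cells and keratinocytes. Alternatives changed the filter, pseudocount, normalization, samples fitted, variance trend, replicate block, fibre reference and libraries.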

Additional observations from a re-analysis of the deposited data

Results flagged for a closer look

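The Cdh15 value of IL-4 library 1, -1.52 log2 CPM, stood apart from the other 4 IL-4 libraries, which read -0.11 to 0.38. The value rests on only about 2 reads, against about 8, 11, 14 and 7 in those libraries. Its gap to the nearest of them was 0.744 of the group's range, above the limit of 0.71 for 5 samples. The same library had the lowest fibre mean of all 20 (3.42) and the lowest Myod1 and Mef2c values. It was the only value to stand apart among 24 groups of levels and 24 groups of relative values, where chance alone gives about 1 in 20.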

How the results depend on the processing

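Depth limits Pax7 most: it rests on 0 to 26 reads per library. Myod1 also rests on few reads in IL-4 libraries 1, 4 and 5 (about 3, 5 and 4), and Myog in IL-4 library 1 (about 3). Cdh15 rests on about 2 to 14 reads in IL-4 and 3 to 23 in IL-13. PBS libraries 1, 2 and 3 had few barrier transcripts. Without them, 1200 genes and 2 members were called in IL-4, 385 and 0 in IL-13, and 0 genes in IL-31, with negative changes for all 6 members in IL-4 and IL-13. Relative to fibre genes, 0 members were called in IL-4, beside 15077 genes, and 5 genes in IL-31. The log2 change of Myog in IL-31 turned to -0.115 and its pseudocount-1 value was -0.019. The relative log2 difference of Myod1 in IL-31 was -0.128. The cause was not tested. With only the 10 samples of a comparison fitted, 1269 (IL-4), 1134 (IL-13) and 0 (IL-31) genes were called against PBS, 3 in IL-4 against IL-31, and 267 relative to fibre genes in IL-31; fewer samples estimate the spread there. Without the variance trend the last count was 60.

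Members called relative to fibre genes were 2 in IL-4 and 3 in IL-13 with a pseudocount of 1, and 4 and 3 with fast-fibre genes as reference. In the main relative fit 96.1% of all genes were called in IL-4 and 95.7% in IL-13. Quantile normalization raised the share of higher calls from 46.1 to 59.5% in IL-4 and from 50.4 to 61.4% in IL-13.

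The replicate block gave 2952 and 3252 genes in IL-4 and IL-13 against PBS, with 5 members in each (Pax7 in IL-4: adjusted p = 0.0278). It gave 2 genes in IL-4 against IL-31. Relative to fibre genes it called 2 members in IL-4 (Mef2c: adjusted p = 0.0444), beside 15900 genes, and 238 genes in IL-31. Same-numbered samples deviated together about as much as other pairs: r ran from -0.236 to 0.486 over 30 pairs, 10 of them over 0.1. Its median was 0.038, against 0.02 over 120 other pairs, 44 of them over 0.1. Correlation over all genes is a coarse check, so whether these samples share more than a number was not settled.

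Leaving out 1 library at a time gave 1885 to 3553 genes in IL-4 against PBS, 1995 to 4703 in IL-13 and 0 to 3029 in IL-31 (0 without PBS library 2, 3029 without PBS library 5). Members called were 4 to 5, 3 to 5 and 0. Against IL-31, genes called were 0 to 304 for IL-4 and 0 to 297 for IL-13, and members 0 to 2 in both. Relative to fibre genes, members were 0 to 3 in IL-4, beside 15422 to 15948 genes, and genes 12 to 216 in IL-31. Values near 0 changed sign: Myog in IL-31 (-0.245 to 0.265); Myf6 (-0.024 to 0.38), Mef2c (-0.146 to 0.36) and Cdh15 (-0.404 to 0.242) in IL-4 against IL-13; and, relative in IL-31, Myod1 (-0.145 to 0.217) and Cdh15 (-0.086 to 0.119). The Foxo3 call in IL-4 was also lost with the block, without the trend or with only the 10 samples fitted. Counts of list genes without PBS libraries 1, 2 and 3 were added after the data were seen.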

Other observations

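Neutrophil markers varied within every group. Their mean over 9 genes was 4.62, 5.51 and 5.14 log2 CPM in PBS libraries 1, 3 and 5, and 0.83 and 0.57 in PBS libraries 2 and 4. Within IL-4, library 4 read 4.17 and the remaining 4 libraries 0.36 to 0.98. In IL-13 libraries 1 and 3 it was 5.11 and 3.35, against -0.01 to 0.70 in the other 3. In IL-31 library 3 it was 4.89, against -0.31 to 3.39 in the others. The level of Myog relative to the fibre genes was highest of its group in IL-4 library 4 (-3.86), in IL-13 libraries 1 and 3 (-2.82 and -2.87) and in IL-31 library 3 (-3.85). In PBS it was -5.53, -6.24 and -5.05 in libraries 1, 3 and 5, and -6.86 and -6.71 in libraries 2 and 4. In IL-4, IL-13 and IL-31 the library with the highest neutrophil mean had the highest relative Myog, and in PBS the 3 libraries with a high neutrophil mean had the 3 highest values of it. IL-31 library 4, with a neutrophil mean of 3.39, read -5.90 for relative Myog, below IL-31 libraries 1 and 5. The fibre mean that is subtracted was below its group's mean in the cytokine libraries among these. It was 4.77 in IL-4 library 4, 4.56 and 4.45 in IL-13 libraries 1 and 3, and 5.41 in IL-31 library 3. In PBS it was low in library 3 (6.93) but not in libraries 1 and 5 (7.75 and 7.79, beside a PBS mean of 7.79). Before subtraction Myog was not the highest of its group in IL-4 library 4 (0.91, against 1.63 in library 5), IL-13 library 1 (1.74, against 2.04 in library 2) or IL-31 library 3 (1.56, against 2.21 in library 5). In PBS, libraries 5 and 1 had the highest Myog before subtraction too (2.74 and 2.22), and library 3 the lowest (0.70). Relative Cdh15 was also highest of its group in IL-4 library 4 (-4.55), IL-13 library 1 (-4.69) and IL-31 library 3 (-5.13). It was lowest of its group in IL-13 library 3 (-5.83), and PBS library 3 (-5.77) lay below PBS library 4 (-5.73). Cdh15 thus shared the pattern of Myog only in part. This was noticed after the values were seen, no test of it was made, and none of the 9 neutrophil markers passed the test against PBS in any cytokine (medians -2.46 in IL-4, -1.86 in IL-13 and -1.50 in IL-31, with 1 at an unadjusted p under 0.05 in each).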
